A study of Homo sapiens with 4 samples.

Results

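Of the 45085 PML/RARA peaks on chromosomes 1 to 22, 6590 lay at the end of a protein-coding gene and shared no base with a PPARα peak, and these 6590 regions are described here. A peak was taken when its summit lay within 1 kb of either annotated end of a protein-coding RefSeq gene and no PPARα peak covered any of its bases. The data come from NB4 cells, an established line of human acute promyelocytic leukemia in which the PML/RARA fusion is present, profiled by CUT&Tag, where an antibody brings a cutting enzyme to chromatin so that the DNA it cuts and tags can be sequenced. The 4 libraries were 1 with an antibody to PPARα and 1 with an antibody to PML/RARA, both with the treatment label "Treatment", and an IgG library named for each, labelled "Control". No drug or other agent is named for any of them, and NB4 is 1 cell line with no comparison line here. Only the 2 antibody peak lists were used, with 1 library each and no replicate, so nothing here measures variation between libraries. No source used here gives the site that the PML/RARA antibody recognises, so unfused PML and RARA cannot be told apart from the fusion, and the read depth behind the lists is unknown.

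PML/RARA joins the PML protein to the retinoic acid receptor RARA and drives acute promyelocytic leukemia. It keeps the DNA-binding and ligand-binding parts of RARA, pairs with RXR receptors, and is known for holding corepressors at target genes until retinoic acid or arsenic relieves the block in granulocyte maturation. PPARα is another nuclear receptor that pairs with RXR, is switched on by fatty acids, and is known for driving fatty acid oxidation. Both receptor pairs read copies of the half-site AGGTCA, and a gene's start carries its promoter, where many other factors bind.

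The promoters of the strongest of these peaks show the sequence they sit on, and they are printed first. Each line gives the 250 bases before the annotated start, 5′ to 3′ on the gene's strand, from RefSeq on GRCh38.p14 (hg38). Capitals in the first 4 mark GGGCGG or its complement CCGCCC (read by SP and KLF factors), CCGGAAG (ETS factors) and CCAAT (NF-Y). They are shown as the highest by the authors' −log10 q among 1370 promoters whose summit fell in this stretch. That number leaves out stretches that overlap another annotated gene and 1 chromosome from which no sequence was printed. FLOT1 encodes a membrane raft scaffold (chr6:30742688-30742937, minus strand), GPATCH8 a G-patch protein (chr17:44503407-44503656, minus strand), PRKACA the catalytic subunit of protein kinase A (chr19:14117763-14118012, minus strand) and EIF4A3 a helicase of the exon junction complex (chr17:80147129-80147378, minus strand).
FLOT1: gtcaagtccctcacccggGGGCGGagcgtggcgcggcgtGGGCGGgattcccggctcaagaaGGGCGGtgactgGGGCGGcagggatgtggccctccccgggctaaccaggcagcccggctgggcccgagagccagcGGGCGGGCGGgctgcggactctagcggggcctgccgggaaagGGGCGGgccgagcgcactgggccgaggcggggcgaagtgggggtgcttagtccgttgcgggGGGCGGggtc
GPATCH8: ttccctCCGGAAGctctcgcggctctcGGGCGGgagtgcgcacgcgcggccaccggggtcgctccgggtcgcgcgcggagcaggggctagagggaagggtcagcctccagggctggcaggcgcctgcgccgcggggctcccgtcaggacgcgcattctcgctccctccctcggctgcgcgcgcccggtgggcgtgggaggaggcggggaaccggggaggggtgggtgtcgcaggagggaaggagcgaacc
PRKACA: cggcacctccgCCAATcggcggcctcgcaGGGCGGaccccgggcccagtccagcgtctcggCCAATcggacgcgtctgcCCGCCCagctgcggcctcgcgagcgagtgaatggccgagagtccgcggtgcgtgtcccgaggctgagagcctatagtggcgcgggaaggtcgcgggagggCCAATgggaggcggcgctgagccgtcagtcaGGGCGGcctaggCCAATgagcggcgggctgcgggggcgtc
EIF4A3: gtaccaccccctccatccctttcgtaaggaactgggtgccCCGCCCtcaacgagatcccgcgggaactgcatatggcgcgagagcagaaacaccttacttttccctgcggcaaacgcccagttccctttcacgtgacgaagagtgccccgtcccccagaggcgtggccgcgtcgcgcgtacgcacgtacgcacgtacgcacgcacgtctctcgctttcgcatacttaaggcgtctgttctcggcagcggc
The FLOT1 stretch held 8 GGGCGG matches in 76.8% G and C. PRKACA held 3 such matches and 4 CCAAT matches, GPATCH8 held 1 GGGCGG and 1 CCGGAAG, and EIF4A3 held 1 match in 62.4% G and C. None of the 4 held a pair of half-sites of the kinds searched.

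A second set is shown because it holds what the first lacks, a pair of half-sites, here allowing AGGTCA and its near forms (GGGTCA with a changed opening base, AGTTCA with a changed base further in, and GGTTCA with both) at up to 8 bases apart in any orientation. Capitals mark the whole pair with its spacer. PSME3 encodes a proteasome activator (chr17:42833147-42833396, plus strand), ZBED6 a transcription factor that lies with ZC3H11A behind 1 promoter (chr1:203795373-203795622, plus strand) and GSTM2 a glutathione transferase (chr1:109667807-109668056, plus strand).
PSME3: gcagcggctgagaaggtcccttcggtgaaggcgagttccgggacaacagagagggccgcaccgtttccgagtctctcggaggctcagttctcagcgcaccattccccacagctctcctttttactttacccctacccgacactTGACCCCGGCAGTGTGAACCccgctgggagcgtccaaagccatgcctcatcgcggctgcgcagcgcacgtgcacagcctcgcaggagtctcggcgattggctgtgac
ZBED6: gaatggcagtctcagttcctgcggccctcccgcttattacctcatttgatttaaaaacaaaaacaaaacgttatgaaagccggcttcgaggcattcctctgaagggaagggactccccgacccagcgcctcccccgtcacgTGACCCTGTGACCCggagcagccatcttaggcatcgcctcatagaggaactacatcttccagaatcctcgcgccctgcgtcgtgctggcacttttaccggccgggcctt
GSTM2: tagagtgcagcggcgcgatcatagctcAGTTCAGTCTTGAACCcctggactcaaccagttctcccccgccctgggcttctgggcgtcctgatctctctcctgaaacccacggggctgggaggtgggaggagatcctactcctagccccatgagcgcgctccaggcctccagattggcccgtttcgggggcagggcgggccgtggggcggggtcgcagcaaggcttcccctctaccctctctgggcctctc
The PSME3 pair ran in 1 direction with 8 bases between the half-sites, the ZBED6 pair in 1 direction with 2 bases, and the GSTM2 pair was inverted with 4 bases. The peaks there had folds of 30.4, 31.9 and 22.3. A match is a stretch of letters and says nothing of what was bound.

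The 6590 peaks had a median fold enrichment of 7.77, a linear ratio over background as the authors gave it, with 5% of them below 3.43 and 5% above 21.9. Their median −log10 q was 14.7 and their median width 298 bases, and together they covered 2253 kb. The 5498 peaks at gene ends that shared bases with a PPARα peak were taller and wider, with a median fold of 16.0, a median −log10 q of 57.7 and a median width of 581 bases. A wider peak has more bases to share, so the rule itself sets the difference in width in part. The 28901 PML/RARA-only peaks elsewhere in the genome were lower and narrower, with medians of 6.23, 7.99 and 194 bases. Over all 45085 peaks the medians were 7.39, 11.9 and 240 bases. Both statistics come from the authors and describe peaks within this list only. The PPARα list held 9829 peaks, so the absence of a PPARα call covers any signal below that list's own threshold.

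**Figure D1:**
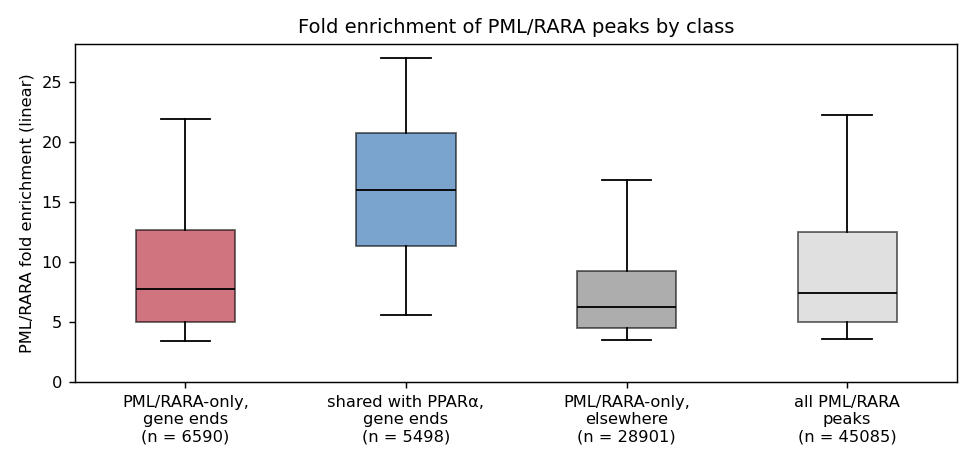
Fold enrichment (linear, authors' values) of PML/RARA peaks in 3 classes and over all peaks; boxes span the 25th to the 75th percentile of the peaks with the median as a line, and whiskers run from the 5th to the 95th percentile. The PML/RARA-only peaks at gene ends have a median of 7.77, between the 6.23 of PML/RARA-only peaks elsewhere and the 16.0 of gene-end peaks shared with PPARα.

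Most of the peaks lay at gene starts, but the share at the other end of the gene, where transcription stops and here called the finish, was larger than among shared peaks. The strand was known for 15101 of 19126 protein-coding genes (79.0%), which left the nearest end of 1377 peaks untyped. Of the 5213 typed peaks, 4255 (81.6%, 95% exact interval 80.5 to 82.7) were nearest to a start and 958 (18.4%) to a finish. Among shared gene-end peaks 4484 of 4651 (96.4%, 95.8 to 96.9) were nearest to a start and 167 to a finish. The intervals are Clopper-Pearson and cover counting error over peaks only. Of the 958 finish peaks, 881 had no start or untyped end of a protein-coding gene within 1 kb. Most of them were thus not at the annotated start of a neighbouring protein-coding gene. Starts of noncoding genes and further starts inside genes were not checked for these peaks.

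Peaks at starts were higher and closer to the end than peaks at finishes. At starts the median fold was 8.61 and the median distance from summit to end 124 bases, and 62.1% of summits lay within 200 bases. At finishes the median fold was 5.58, the median distance 493.5 bases, and 19.4% of summits lay within 200 bases. Shared peaks had a median fold of 16.3 at starts and 12.05 at finishes. The height also followed the position around the start: the 1898 summits from 0 to 200 bases outside the start had a median fold of 11.9, the 743 from 0 to 200 bases inside 9.16, and the 338 from 400 to 600 bases inside 5.18. Over all ends 55.5% of summits (54.3 to 56.7) lay outside the gene, against 64.9% of shared summits, and the median distance to the nearest end was 164 bases.

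**Figure D2:**
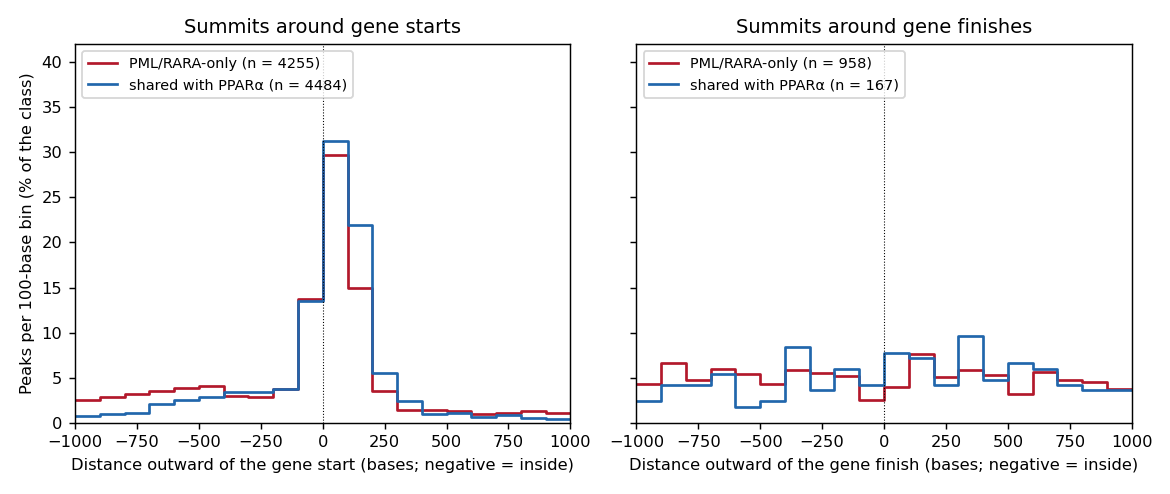
Summits per 100-base bin, as a percentage of each class, by distance outward of the nearest gene start (left) or finish (right), for PML/RARA-only peaks and for gene-end peaks shared with PPARα. Both classes pile up just outside the start, and PML/RARA-only summits are spread across the finish with a median distance of 493.5 bases.

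The mixture of starts and finishes changed with peak strength. Split into quartiles of −log10 q, 70.6% of the typed peaks of the lowest quartile were nearest to a start, then 78.7%, 85.9% and 91.0%. Shared peaks of the same −log10 q ranges were at starts in 95.2% (90.8 to 97.9, 167 typed peaks), 94.5%, 96.9% and 96.5%, so the shares of both classes lay closest together among the strongest peaks. From the lowest to the highest quartile the median fold went from 4.28 to 6.68, 10.5 and 16.9, which the ranking itself sets in part, and the median summit distance from 409 to 239, 106 and 103 bases.

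**Figure D3:**
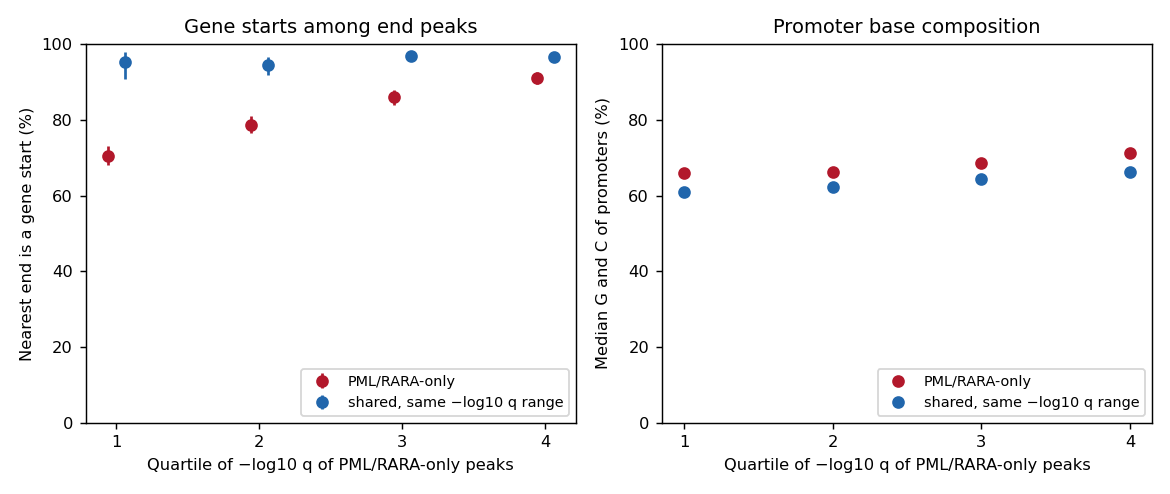
Left, share of typed peaks whose nearest gene end is a start, with 95% exact intervals, by quartile of −log10 q of the PML/RARA-only peaks and for shared peaks in the same range. Right, median G and C of promoter windows by quartile of −log10 q over PML/RARA-only promoters and for shared promoters in the same range; the PML/RARA-only points run from 66.0% to 71.3%.

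The 20 strongest of these peaks stood mostly at gene starts. The highest −log10 q, 536 at a fold of 23.2, lay 519 bases outside an untyped end of SKI, a corepressor that dampens TGF-beta signalling and that is known to bind retinoic acid receptor complexes. The next, 520 at 28.5-fold, lay between FLOT1 and IER3, an immediate early gene of the stress response. ARID3B, a DNA-binding protein, had 480 at 25.2-fold, and GPATCH8 431 at 36.8-fold. SLC3A2, the heavy chain of amino acid transporters, had 425 at 29.5-fold with its summit 27 bases outside the start. PRKACA had 418 at 22.04-fold, and a PPARα peak lay 46 bases from its peak.

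EIF4A3 had a −log10 q of 394 at 25.9-fold and the ubiquitin ligase gene MARCHF2 386 at 34.1-fold. BCL7B, a subunit of SWI/SNF chromatin remodellers, had 356 at 22.3-fold and a wide peak of 1063 bases. A peak of 21.3-fold had its summit 100 bases inside the start of FBXO24 and 299 bases outside that of LRCH4, and 1 of 14.3-fold lay at IQCN. PSME3 had 30.4-fold, THOP1, a peptidase gene, 20.9-fold, and a peak of 28.8-fold lay at TAOK2, a MAP kinase kinase kinase, with TMEM219 and LOC124903762 on the same peak. PPP3R1, the calcineurin regulatory subunit, had 25.7-fold, CIRBP, a cold-inducible RNA-binding protein, 11.4-fold, KDM2A, a histone demethylase that binds unmethylated CpG, 23.8-fold, and PLEKHH3 11.98-fold. The last of the 20, COL9A2, a collagen gene, was at a finish, with 26.9-fold and its summit 779 bases outside. The highest fold of all, 46.6 over 198 bases, was at LOC102723655 (chr16:19704-19901), near the tip of the chromosome, and how reads with several matching places were handled is not stated in the sources.

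The peaks nearest to the limits of the rule are given as a description. Just inside the 1 kb limit lay peaks of FOXO3 (5.70-fold, 1000 bases), KRT23 (5.71-fold, 1000 bases) and CSK (3.57-fold, 999 bases), and just outside it peaks near ARHGEF2 (11.4-fold), BOK (5.05-fold) and C2orf92 (7.64-fold), all at 1002 bases. Peaks at S100A4 (6.86-fold) and ISOC2 (5.87-fold) counted as unshared although a PPARα peak ended 1 base away, while peaks at CSPP1 (7.61-fold), RASAL2 (8.64-fold) and C6orf136 (15.8-fold) counted as shared through 1 or 2 bases. A PPARα peak lay within 100 bases of 123 of the 6590 peaks, within 1 kb of 634 (9.62%) and within 100 kb of 81.3%, and the median gap was 30622 bases.

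By gene, 6034 of 19126 protein-coding genes (31.5%) had at least 1 such peak at an end, close to the 5995 (31.3%) with a shared one. Both kinds occurred at 1009 genes, 535 of them at the same end. Among the 11020 genes with any PML/RARA peak at an end, 5025 (45.6%) had no shared one. These 5025 genes had a median length of 23.5 kb, against 32.2 kb for the 4986 genes with shared peaks alone and 21.2 kb for the 8106 with none. A single peak served 1 gene in 5711 of 6590 cases (86.7%) and 2 genes in 847 (12.9%). It lay at the starts of 2 or more genes in 364 cases (5.52%), against 814 of 5498 shared peaks (14.8%), so shared peaks more often sat between divergent or overlapping starts.

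Most of the genes, 4770, carried 1 such peak, 1081 carried 2, 165 carried 3, 14 carried 4 and 4 carried 5. The 4 were CEBPB, a driver of emergency granulocyte production, NUDT22, a nucleotide sugar hydrolase, NFIX, a transcription factor, and CLIP2, a microtubule-binding protein. CEBPB is short enough that its 5 peaks ran along the whole gene, from 83 bases outside the start (5.88-fold) to 246 bases inside the finish (4.54-fold), with the highest, 9.26-fold, 749 bases inside the finish. At CLIP2, a long gene, the peaks sat apart at its 2 ends, with folds of 6.26 and 7.75 at the start and 2.94, 8.004 and 7.49 at the finish. The NUDT22 folds ran from 2.52 to 6.58, and its finish peaks also counted for the start of DNAJC4. NFIX ran from 2.04 to 5.90.
The genes with 4 included OAZ1, an inhibitor of polyamine synthesis, PEX6, of peroxisome import, CSK, the kinase that restrains SRC kinases, DNAJC4, BMP1, THEMIS2, PLEKHN1, FAM53B, CFAP52, TGFB1I1, NOP53, GZMM and CAMK2N2. The 4 CSK peaks all lay around its start with folds of 3.57 to 5.24, while PEX6 had 18.5-fold at its start and 3.83 to 5.81 at the other 3.

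The genes were sorted into 33 lists of pathways, complexes and families, some of which share genes. For each list the share of genes with a PML/RARA-only peak was set beside the 31.5% of all protein-coding genes. In 10 lists the whole exact interval lay above that share, in 3 it lay below, and in 20 it included it. The intervals count genes, and neighbouring genes can share a peak. The lists were chosen with earlier results of these data known. With 33 of them compared, these counts are a description of the lists. Among the 10 were NF-kB and Toll-like receptor genes, myeloid transcription factors, immediate early genes, kinases and adaptors of immune receptors, G protein signalling, and Wnt and Notch. Cell cycle and apoptosis, cytosolic ribosomal proteins and solute carriers were among them by narrow margins, with lower bounds of 31.7%, 32.1% and 31.6%. The proteasome and respiratory chain list, with a share of 43.3%, fell short of them with a lower bound of 31.2%. When only as many of the strongest PML/RARA peaks were kept as there were PPARα peaks, the share of all genes was 8.74%. The NF-kB list and the kinases and adaptors, both at 9.62%, and Wnt and Notch, at 9.23%, were then close to it, while immediate early genes had 33.3% and myeloid transcription factors 23.6%. The 3 lists whose whole interval lay below the 31.5% were olfactory receptors, keratins with their associated proteins, and cadherins with protocadherins.

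**Figure D4:**
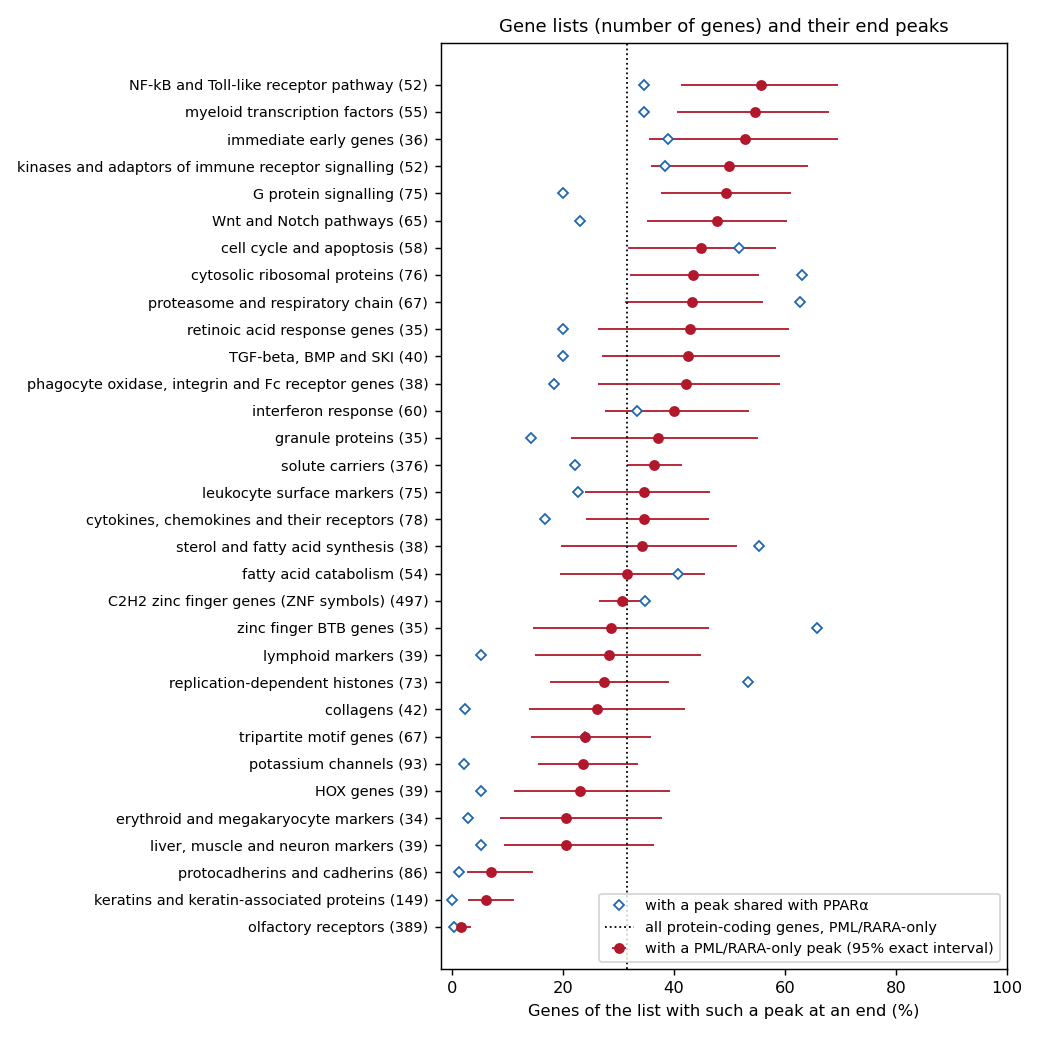
Percentage of the genes of each list shown (number of genes in brackets) with a PML/RARA-only peak at an end, with 95% exact intervals, and with a peak shared with PPARα (open diamonds); the dotted line is the 31.5% of all protein-coding genes. The NF-kB, myeloid transcription factor and immediate early lists lie furthest to the right of the line, and the ribosomal protein list also lies to its right. The ZNF, zinc finger BTB, tripartite motif and HOX points lie to its left, but their intervals include it. Olfactory receptors, keratins and cadherins lie far to its left.

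Transcription factors of the myeloid lineage were among the lists most often covered. Of 55, 30 (54.5%, 40.6 to 68.0) had a PML/RARA-only peak and 19 (34.5%) a shared one, and the best peaks of the 30 had a median fold of 9.19, near the 9.15 of all 6034 genes. LYL1, a hematopoietic basic helix-loop-helix factor, had 7.44-fold with a −log10 q of 218 and 3 peaks. IRF1, an interferon-inducible factor, had 18.7-fold, RUNX3 17.5-fold, and STAT5B, which relays cytokine signals and is itself a known fusion partner of RARA, 17.8-fold. Of the C/EBP factors that drive granulocyte maturation, CEBPA had 14.8-fold with its summit 148 bases outside the start, CEBPE 9.50-fold at 39 bases inside, and CEBPB the 9.26-fold peak near its finish. ID2, an inhibitor of helix-loop-helix factors, had 19.999-fold.

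Immediate early genes, which answer a stimulus within minutes, were covered in 19 of 36 (52.8%, 35.5 to 69.6), and 14 (38.9%) had a shared peak. Besides IER3 at 28.5-fold, FOSL2 had 22.7-fold, DUSP6, a phosphatase that shuts off ERK, 26.4-fold at its finish, BTG2 16.6-fold and DUSP1 12.9-fold. JUNB had 6.54-fold, DUSP2 9.85-fold and IER2 4.76-fold. IER2 and DUSP6 also had a shared peak at an end. The low folds of JUNB and IER2 came with −log10 q values of 228 and 124, above the 121 of DUSP6, so the order of genes depends on which of the authors' values is used.

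NF-kB and Toll-like receptor genes had the highest share of the lists, 29 of 52 (55.8%, 41.3 to 69.5), against 18 (34.6%) with a shared peak. RELA, the main activating subunit of NF-kB, had 17.8-fold at 763 bases inside its start and also a shared peak, REL 20.9-fold at 14 bases outside, and BCL3, an atypical inhibitor-family member that acts in the nucleus, 14.6-fold. CARD9, an adaptor for fungal sensing, had 11.2-fold and also a shared peak. The inhibitors NFKBIE and NFKBID had 9.51- and 8.37-fold, and the signalling adaptors TAB1 and TRAF2 15.1- and 7.42-fold.
Kinases and adaptors of immune receptors followed with 26 of 52 (50%, 35.8 to 64.2), and all 21 best peaks whose nearest end was typed lay at a start. PRKCB, a protein kinase C, had 18.2-fold, PLCG2, the phospholipase downstream of B-cell and Fc receptors, 18.5-fold, and the related PLCB2 11.4-fold. CBL, a ubiquitin ligase mutated in myeloid leukemias, had 15.1-fold and PTPN22, a phosphatase, 13.8-fold. LAT and PIK3CD had 10.1- and 10.2-fold, and CSK 5.24-fold.

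Of 75 G protein signalling genes, 37 (49.3%, 37.6 to 61.1) had a PML/RARA-only peak and 15 (20%) a shared one, and of the 47 with any PML/RARA peak at an end 32 (68.1%, 52.9 to 80.9) had no shared one, against 45.6% of all genes. That last share was 65.9% (50.1 to 79.5) for Wnt and Notch and 58.3% (51.1 to 65.2) for solute carriers. It was 57.8% (42.2 to 72.3) for myeloid transcription factors and 57.1% (41.0 to 72.3) for the NF-kB list. Immediate early genes had 51.7%, kinases and adaptors 53.5% and the cell cycle list 41.2%. From the myeloid list on, each interval included 45.6%. PRKACA led, and the G protein subunits GNG7, GNA12, GNA13 and GNAI2 had 30.6-, 23.2-, 18.2- and 15.5-fold. GPR132, a receptor for lysolipids and lactate, had 13.99-fold, LPAR2, a lysophosphatidic acid receptor, 18.6-fold, and RGS19, which speeds G protein shut-off, 8.97-fold.
Wnt and Notch genes had 31 of 65 (47.7%, 35.1 to 60.5), with 15 (23.1%) shared. AXIN1, the scaffold that destroys beta-catenin, had 23.02-fold, APC, of the same complex, 15.9-fold, and WNT5B 16.8-fold at its finish. DVL2 had 10.5-fold. The Notch targets HES1, HES6 and NRARP had 6.11-, 9.29- and 11.1-fold, and the corepressor TLE3 7.54-fold.
The TGF-beta and BMP list, with 17 of 40 (42.5%, 27.0 to 59.1), included the background in its interval. Its members had a median fold of 13.8, from SKI and the receptors ACVR1B (21.9), TGFBR2 (18.1) and BMPR1A (13.99) to the ligands TGFB1 (13.99) and GDF15 (12.5, at its finish), the transducer SMAD3 (13.9) and the decoy receptor BAMBI (13.8).

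In the cell cycle and apoptosis list 26 of 58 (44.8%, 31.7 to 58.5) had such a peak and 30 (51.7%) a shared one, so this list was covered by both kinds. MCM2, of the replicative helicase, had 26.7-fold, CCNB1, the mitotic cyclin, 21.7-fold, BAX, an executor of apoptosis, 21.1-fold, PMAIP1 19.3-fold and MCM5 19.0-fold. CDKN1B, a cyclin-dependent kinase inhibitor, had 15.4-fold and E2F1 14.2-fold.

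Genes of the promyelocyte and neutrophil phenotype had shares whose intervals included the background. Granule proteins had 13 of 35 (37.1%, 21.5 to 55.1), with 5 (14.3%) shared, and this list fell below the background when the PML/RARA list was shortened to the length of the PPARα list. MPO, myeloperoxidase, had 9.26-fold at 909 bases outside an untyped end, and AZU1 and PRTN3, serine proteases of the same gene cluster, 11.5-fold at 31 bases and 5.22-fold at 4 bases outside their starts. SRGN, the granule proteoglycan, had 12.3-fold, BPI 13.2-fold, MMP9 8.36-fold, MMP25 8.42-fold and CHI3L1 8.20-fold.
Retinoic acid response genes had 15 of 35 (42.9%, 26.3 to 60.6), with 7 (20%) shared. The side of the background that this list fell on turned at a fold of at least 5 and in the shortened list, and its median fold of 4.998 was low beside 9.15. CD38, a surface enzyme strongly induced by retinoic acid in myeloid cells, had 16.0-fold at 792 bases inside its start. STRA6 and CRABP2, which import and carry retinoids, had 8.59- and 7.23-fold, DHRS3, which reduces retinal, 6.31-fold, TGM2 6.08-fold, ICAM1 4.16-fold and PRAM1, an adaptor named for its regulation by PML/RARA, 2.98-fold.

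Phagocyte oxidase, integrin and Fc receptor genes had 16 of 38 (42.1%, 26.3 to 59.2), also with a turn to below the background in the shortened list. NCF4, an oxidase subunit, had 15.0-fold, ITGAM, the CD11b subunit that marks maturation, 15.9-fold, ITGAD 12.8-fold, ITGB1 13.3-fold, FCGR2A 12.5-fold beside a shared peak, FCER1G 7.17-fold and FERMT3, which activates integrins, 5.67-fold. Fc receptor genes have near-identical copies, so their peaks carry that uncertainty.
Cytokines, chemokines and receptors had 27 of 78 (34.6%, 24.2 to 46.2) and leukocyte surface markers 26 of 75 (34.7%, 24.0 to 46.5), both near the background and both below it in the shortened list. CCR2, the monocyte chemokine receptor, had 26.0-fold 606 bases beyond its finish, IL17RA 18.8-fold, IL10RA 13.8-fold, CXCL8 12.6-fold, TNF 9.83-fold, TNFRSF10B 9.50-fold, LTB 8.34-fold and OSM 7.98-fold. Among surface markers CD83 had 20.4-fold, CD37 and CD72 11.6-fold, TYROBP, a signalling adaptor, 10.3-fold at its finish, CD300LF 10.6-fold, CD300C 10.4-fold, ADGRE5 9.36-fold and CD151 8.03-fold.
The interferon list had 24 of 60 (40.0%, 27.6 to 53.5), led by IRF1. IFITM2, which blocks virus entry, had 23.2-fold and its neighbour IFITM1 11.7-fold, TRIM25 16.1-fold, IFI30 15.9-fold, SOCS3, a feedback inhibitor, 15.6-fold, IRF9 15.1-fold and IFI35 8.91-fold.

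The lipid lists, where PPARα targets would be counted, had shares at the background. Fatty acid catabolism had 17 of 54 (31.5%, 19.5 to 45.6) and 22 (40.7%) with a shared peak, and the side of the background that it fell on changed under 5 of the 7 alternative settings. Sterol and fatty acid synthesis had 13 of 38 (34.2%, 19.6 to 51.4) and 21 (55.3%) shared, and it fell below the background with a window of 500 bases. Single members were nevertheless strong: ACAD10 had 31.8-fold beside a shared peak, ACADS, the short-chain acyl-CoA dehydrogenase, 27.0-fold, ACSL3 25.6-fold, ACAA1, the peroxisomal thiolase, 22.8-fold, ECHS1, a mitochondrial hydratase, 22.6-fold and SLC25A20, the carnitine carrier, 19.5-fold. DECR2 had 15.9-fold and ETFB 7.61-fold. For synthesis, ACLY, which makes cytosolic acetyl-CoA, had 24.2-fold, FADS1 and FADS2, the desaturases, a common peak of 18.3-fold, ACACA 17.6-fold, SREBF1, the master regulator of lipid synthesis, 10.3-fold, TM7SF2 9.33-fold, ELOVL5 8.12-fold and ACSS2 4.93-fold.

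Housekeeping complexes were covered by both kinds of peak, with more shared ones. Of 76 cytosolic ribosomal protein genes 33 (43.4%, 32.1 to 55.3) had a PML/RARA-only peak and 48 (63.2%) a shared one, and only 1 had neither. Of the 75 with a peak, 27 (36.0%) had no shared one, against 45.6% of all genes. RPL22, RPS16, RPS28 and RPL13A had 26.8-, 24.0-, 22.1- and 22.1-fold, and the list's median fold was 13.6. FAU and RPS2 had 17.8- and 12.7-fold.
Proteasome and respiratory chain genes had 29 of 67 (43.3%, 31.2 to 56.0) and 42 (62.7%) shared. SDHA and SDHB, subunits of succinate dehydrogenase, had 30.9- and 29.5-fold, PSMA2 23.9-fold, NDUFV1 23.5-fold, CYC1 18.9-fold, COX4I1 18.0-fold, NDUFB7 14.8-fold and COX6A1 11.8-fold at its finish.
Replication-dependent histone genes had 20 of 73 (27.4%, 17.6 to 39.1) against 39 (53.4%) shared, and of the 52 with any peak 13 (25%) had no shared one. They moved to the other side of the background with a fold of at least 5 and with the 5 kb window. H2BC18 had 21.98-fold, H3C4 9.71-fold, H3C11 with H4C13 on the same peak 9.15-fold, H1-4 8.95-fold, H3C2 8.77-fold and H3C12 6.60-fold.

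Among large families, solute carriers had 137 of 376 (36.4%, 31.6 to 41.5) and 83 (22.1%) shared. SLC3A2 at 29.5-fold and SLC1A5, a glutamine transporter, at 12.97-fold led by −log10 q, followed by SLC16A3, the lactate exporter, 8.38-fold, SLC17A9 10.8-fold, SLC4A2 15.3-fold, SLC66A3 22.96-fold and SLC38A12 8.64-fold.
Zinc finger genes with ZNF symbols had 152 of 497 (30.6%, 26.6 to 34.8) and 173 (34.8%) shared, and their side of the background changed under 5 alternatives. ZNF195, ZNF57, ZNF10 with ZNF891, ZNF77, ZNF324, ZNF775 and ZNF595 had 31.0-, 29.5-, 28.3-, 24.9-, 22.7-, 19.8- and 14.1-fold.
Zinc finger BTB genes had 10 of 35 (28.6%) against 23 (65.7%, 47.8 to 80.9) shared, and their side changed under 4 alternatives. ZBTB34, ZBTB12, ZBTB45, ZBTB32, ZBTB14, ZBTB47, ZBTB42 and ZBTB22 had 12.6-, 12.1-, 11.2-, 11.0-, 9.97-, 9.84-, 8.64- and 4.43-fold. Tripartite motif genes, the family of PML itself, had 16 of 67 (23.9%) with each kind. TRIM11 with TRIM17, TRIM25, TRIM56, TRIM33, TRIM27, TRIM46 and TRIM65 had 22.2-, 16.1-, 15.1-, 13.4-, 9.77-, 9.43- and 9.35-fold.

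Families tied to other tissues had few shared peaks, and where they carried PML/RARA at an end it was mostly without PPARα. This was not particular to them. Of genes with any peak, 84.6% (54.6 to 98.1) of lymphoid markers and 65.8% (48.6 to 80.4) of the cytokine list had no shared one. Granule proteins had 70.6% (44.0 to 89.7), an interval that includes the 45.6% of all genes. Potassium channels had 22 of 93 (23.7%, 15.5 to 33.6) and 2 shared, and of the 23 with any peak 21 (91.3%, 72.0 to 98.9) had no shared one. KCNH6, KCNN3, KCNK5, KCNC4, KCNH1, KCNIP2 and KCNH2 had 19.2-, 15.6-, 13.5-, 13.4-, 13.1-, 12.2- and 11.5-fold. Collagens had 11 of 42 (26.2%, 13.9 to 42.04) and 1 shared. After COL9A2, COL6A1 had 13.2-fold, COL1A1 11.7-fold, COL7A1 10.3-fold at its finish, COL5A3 8.73-fold, COL23A1 7.71-fold, COL13A1 7.35-fold and COL20A1 6.27-fold.
HOX genes, which set body position and are often raised in leukemia, had 9 of 39 (23.1%) and 2 shared, and passed above the background with the 5 kb window. HOXC13 had 15.7-fold, HOXA13 15.1-fold, HOXB5 9.16-fold, HOXC10 8.12-fold, HOXA10 7.89-fold, HOXA9 6.36-fold and HOXC8 5.79-fold.
Cadherins and protocadherins had 6 of 86 (6.98%, 2.60 to 14.6), CDH24, PCDH1, CDH3, CDH15, PCDH12 and CDH23, with 10.6-, 9.49-, 7.10-, 6.32-, 4.72- and 3.65-fold. Keratins and their associated proteins had 9 of 149 (6.04%, 2.80 to 11.2) and no shared peak, and none of the 5 with a typed end lay at a start. The highest was KRT3 at 10.01-fold. KRTAP5-5, KRT85, KRT10, KRT23, KRTAP10-9, KRTAP5-1 and KRTAP5-11 had 8.39-, 6.08-, 5.71-, 5.71-, 4.97-, 4.28- and 4.28-fold. Olfactory receptors had 6 of 389 (1.54%, 0.568 to 3.33), OR1E2, OR2AE1, OR7E24, OR2V2, OR2Z1 and OR1F1, with 13.6-, 8.57-, 7.85-, 7.14-, 6.54- and 3.92-fold.

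Markers of other cell types were counted as well, which cannot check the labelled cell line. Lymphoid markers had 11 of 39 (28.2%, 15.0 to 44.9), erythroid and megakaryocyte markers 7 of 34 (20.6%, 8.70 to 37.9), and liver, muscle and neuron markers 8 of 39 (20.5%, 9.30 to 36.5), beside 2, 1 and 2 shared. Each of these intervals included the 31.5% of all genes. The erythroid list passed above the background with the 5 kb window. CD3E, a T-cell receptor subunit, had 19.4-fold at 641 bases outside an untyped end, PRF1 10.7-fold, CCR7 10.2-fold, RAG1 with TRAF6 on the same peak 9.12-fold, EBF1, a B-cell factor, 8.61-fold, CD79A 8.41-fold, CD79B 7.89-fold and LCK 5.06-fold. NFE2 had 4.02-fold, GP1BA 9.80-fold, ITGB3 7.54-fold, EPB42 6.29-fold, SPTB 4.998-fold, GYPC 3.57-fold and SLC4A1 3.47-fold. APOA1, a liver apolipoprotein, had 10.7-fold, ACTA1 7.72-fold, MAP2 7.14-fold, TF 6.87-fold, MYOG 6.27-fold, TNNT2 5.68-fold, TUBB3 5.09-fold and CKM 4.92-fold. A peak at a gene's end does not show that the gene was expressed, and expression was not measured here.

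Gene families were also read from the leading letters of the symbols, over 102 such roots with 20 or more genes, to be read against the 31.5% of all genes with a PML/RARA-only peak and the 31.3% with a shared one. The highest share was in BCL, with 16 of 22 genes (72.7%, 49.8 to 89.3) and 4 shared, a root that joins unrelated genes named from B-cell lymphoma: BCL7B 22.3-fold, BCL7C 21.6-fold, BCL2, the apoptosis inhibitor, 14.7-fold and BCL3 14.6-fold. ABHD, the alpha/beta hydrolases, had 14 of 22 (63.6%) and 11 shared, with ABHD12 at 22.3-fold, ABHD17A 20.8-fold, ABHD5, the activator of triglyceride lipase, 17.0-fold and ABHD8 4.56-fold. ZDHHC, the palmitoyl transferases, had 13 of 22 (59.1%), CDK 15 of 27 (55.6%) and RAB, the vesicle GTPases, 35 of 67 (52.2%, 39.7 to 64.6). CDK11B had 34.7-fold, CDK7 21.8-fold and CDK5 15.3-fold, RAB5C 30.2-fold, RAB40B 23.2-fold and RAB11FIP1 18.8-fold.
The root P, a mix of purine receptors and prolyl hydroxylases among others, had 13 of 25 (52.0%), SEMA, the semaphorins, 10 of 20 (50%) and 1 shared, SH 17 of 35, VPS, of vacuolar sorting, 17 of 35 with 20 shared, and SNX, the sorting nexins, 14 of 29. P2RX5 had 11.97-fold, P2RY11 8.75-fold and P2RX1 8.46-fold. At the other extreme stood KRTAP with 5 of 94, the taste receptors (TAS) with 1 of 28 and the olfactory receptor root OR with 6 of 391. The beta-defensin (DEFB), PRAMEF and UGT genes had 0 of 39, 0 of 23 and 0 of 22. The defensins of neutrophil granules have DEFA symbols and are not in the DEFB root. For the last 3 the upper bounds of the exact interval were 9.03%, 14.8% and 15.4%. With so many roots compared, the ends of this order are a description of these lists.

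The 958 peaks nearest to finishes had mostly low folds, but some were as high as promoter peaks. Their median fold of 5.58 was below the 6.23 of PML/RARA-only peaks away from gene ends. Their summits were spread over the window, with a median distance of 493.5 bases and 19.4% within 200 bases. After COL9A2, NPRL3, an inhibitor of mTORC1, had 24.5-fold 609 bases beyond its finish (chr16:84610-85200), SUPT4H1, an elongation factor, 26.0-fold 699 bases beyond (chr17:58344122-58344716), and TNFSF9, a costimulatory ligand, 23.4-fold 420 bases beyond. EMC8 had 21.4-fold 501 bases inside its finish, FOXK2 21.7-fold 311 bases inside, GNG8 18.5-fold 377 bases inside and NFKBIL1 13.3-fold 369 bases beyond. BAX had a further peak of 8.50-fold 675 bases beyond its finish, and TRMT1 8.26-fold 487 bases beyond. These finish peaks were picked by −log10 q after their values were seen. The table used here gives no exons, so untranslated parts of the genes were not separated.

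The promoters under these peaks were richer in G and C than those under shared peaks. Windows of 300 bases, from 250 before to 50 after the annotated start, were available for 13150 genes. Of these, 2876 met a PML/RARA-only peak, 4234 a shared peak, 6 both and 6034 no PML/RARA peak. The median G and C was 68.3%, 65% and 56.3% in the 3 main classes and 62.7% over all windows. Over 75% G and C stood in 23.8% of PML/RARA-only promoters, 8.81% of shared ones and 7.56% of those without a peak. The ratio of observed to expected CpG was alike in both peak classes, with medians of 0.862 and 0.875, against 0.417 without a peak. With peak strength the median G and C went from 66.0% in the lowest quartile of −log10 q to 71.3% in the highest, and in shared promoters of the same ranges from 60.8% to 66.3%, so the gap was present at every strength.

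**Figure D5:**
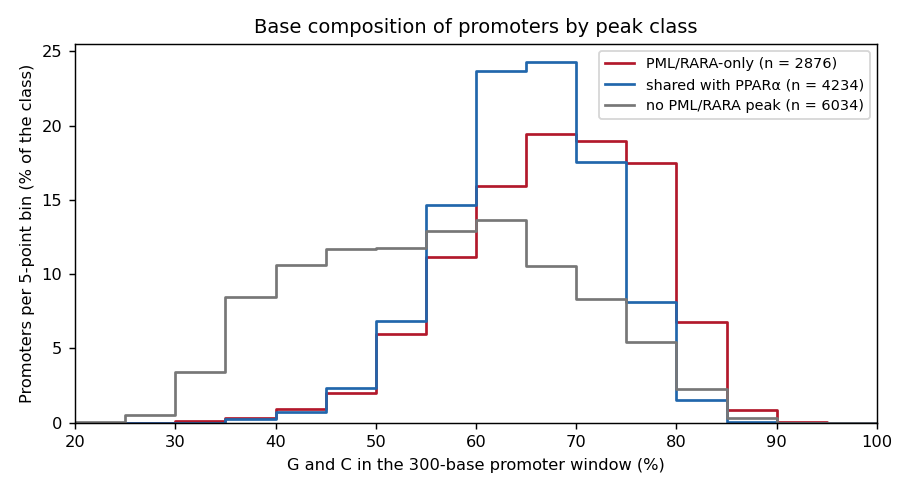
Distribution of G and C over 300-base promoter windows, in bins of 5 percentage points as a percentage of each class. PML/RARA-only promoters reach furthest to the right, with 23.8% above 75% G and C against 8.81% of promoters under shared peaks.

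Motifs were counted on both strands of the windows, as matches of letters. The half-site AGGTCA stood in 8.97% (7.95 to 10.1) of PML/RARA-only promoters, 9.42% of shared ones, 14.6% of those without a peak and 11.7% of all, so it was no more frequent under the peaks. These classes differ in base composition. From 70% to 75% G and C the shares were 7.36% in PML/RARA-only and 7.55% in peak-free promoters, and above 75% they were 4.97% and 5.26%. From 55% to 60% the half-site stood in 11.0% and 19.9%. Exact pairs of it with 1 base between stood in 1 PML/RARA-only promoter, that of TMA7, which lies within another gene, and in 2 of all 13150. Pairs with 2 or 5 bases between, the spacings usual for retinoic acid receptors, stood in none of the windows, which allows up to 0.128% of the 2876 by the exact interval. Pairs of the looser half-sites stood in 28 PML/RARA-only promoters (0.974%, 0.648 to 1.404), 31 shared ones (0.732%) and 135 of all (1.03%).

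Letters of general promoter factors were common in both peak classes, and those of ETS and NF-Y were less frequent in PML/RARA-only than in shared promoters. GGGCGG stood in 76.7% of PML/RARA-only, 74.9% of shared and 39.2% of peak-free promoters, and in 58.9% of all. CCGGAAG, the ETS letters, stood in 19.5% (18.0 to 21.0), 26.2% (24.9 to 27.6) and 4.47%, and in 14.8% of all. CCAAT, the NF-Y letters, stood in 32.9% (31.2 to 34.7), 43.0% (41.5 to 44.5) and 34.3%, and in 36.8% of all. Since base composition differed, the shares were also taken in 6 bands of G and C, and in each band ETS and NF-Y letters were less frequent in PML/RARA-only than in shared promoters. In the band from 65% to 70% the ETS shares were 22.2% and 26.9% and the NF-Y shares 33.5% and 41.8%.

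AP-1 letters (TGANTCA) stood in 4.49% of PML/RARA-only promoters (3.76 to 5.31), 3.35% of shared ones and 7.99% of those without a peak, with 5.73% of all. Below 55% G and C the AP-1 shares were 10.2%, 4.99% and 11.8%. From 65% to 70% they were 2.94%, 3.15% and 3.39%, and above 75% they were 2.19%, 1.88% and 2.19%. Letters of the myeloid factors were slightly less frequent than over all windows: the PU.1 core GAGGAA, which shares GGAA with the ETS letters, in 23.9% against 27.4%, RUNX (TGTGGT) in 8.17% against 10.8%, and C/EBP-like letters (TTGCNNAA) in 5.91% against 8.43%. The E-box CACGTG stood in 11.2% of PML/RARA-only and 11.4% of shared promoters against 8.81% of all, the TATA box (TATAAA) in 4.80% and 4.70% against 10.1%, and the NRF1 motif in 2.54% and 3.38% against 1.86%. The shares of the myeloid, E-box, TATA and NRF1 letters were not taken by band of G and C. From the lowest to the highest quartile of −log10 q the CCAAT share of PML/RARA-only promoters went from 26.0% to 41.7% and the GGGCGG share from 68.2% to 85.0%. Shared promoters of the same −log10 q ranges went from 30.4% to 48.5% and from 57.8% to 79.9%. At like strength the CCAAT shares of both classes thus lay closer together than over all promoters, with 30.2% and 33.2% in the second quartile and 33.8% and 38.2% in the third.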

How the data were processed

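The 2 deposited peak lists are on hg38, and the submitters' processing notes list MACS 1.4.2, Bowtie2 2.2.9, bedtools and SAMtools with no order or role. Use of the IgG libraries and masking are not stated there. Each peak has a fold (a linear ratio over background), a −log10 p and q and a score, deposited by the authors; fold and −log10 q serve only to rank and describe peaks within a list.

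Gene ends, strands and promoters came from RefSeq tables of GRCh38.p14, for 19126 protein-coding genes on chromosomes 1 to 22, and 936 PML/RARA peaks on X and Y were left out. Strand came from the promoter table. Of the 1196 symbols in lists of named genes, 1161 were found. Shares carry 95% Clopper-Pearson intervals (Python 3.11.15, scipy 1.17.1), with no test, since there is 1 list per antibody. Class and overlap code was tested on simulated peaks.

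Members and gene lists were chosen with earlier results of these data known. Named were the 20 highest peaks, genes with 4 or more, up to 8 genes per list, the extreme symbol roots, and peaks at the limits. Some of these, and 1 list, are counted but not reported here. Alternatives were stricter lists, other windows and overlap rules, and a shortened list.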

Additional observations from a re-analysis of the deposited data

How the results depend on the processing

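Keeping only peaks with −log10 q of at least 5 in both lists gave a median fold of 10.2, a median summit distance of 119 bases and 61.2% of summits outside the gene. A fold of at least 5 gave 10.4, 114.5 bases and 62.0%. A window of 500 bases gave 9.11, 99 bases and 63.6%. A window of 5 kb gave 12892 peaks, 9398 genes, 6.61, 952 bases and 49.9%. Counting a peak as shared only where PPARα peaks cover 50% of it gave 8.37, 155 bases and 56.7%, and counting it as shared also where a PPARα peak lies within 1 kb gave 8.17, 150 bases and 57.3%. Shortening the PML/RARA list to the number of PPARα peaks gave 1487 peaks, 1672 genes, 17.5, 104 bases and 73.9%. The cause was not tested beyond what each construction sets. The stricter −log10 q and fold settings act on both lists, so they also drop PPARα peaks and can turn shared peaks into PML/RARA-only ones. At a −log10 q of at least 5 there were 6715 peaks and 6464 genes, against 6590 and 6034 as reported. These 2 counts are among the other 24 values of this kind, which stayed within their interval or within 1.5 times the count. Depth is unknown and limits which peaks count as PML/RARA-only. No paired analysis was possible because each antibody has 1 library with no replicate number.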

Other observations

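The PML/RARA-only genes were unevenly spread over the chromosomes. The share of protein-coding genes with such a peak was 44.3% on chromosome 17, 42.8% on 22, 41.8% on 16, 41.2% on 19 and 39.3% on 20, against 19.2% on 4 and on 21. Shared peaks covered 30.3%, 19.7%, 30.0%, 31.0% and 31.1% of genes on the first 5 and 29.0% and 26.4% on the others. Neighbouring genes with PML/RARA-only peaks and no shared peak formed 81 runs of 5 or more, with 473 genes. The run with the most genes had 12 over 121 kb of chromosome 8, from CATSPERQ to KIFC2, counting the readthrough gene TMEM276-ZFTRAF1 beside both of its parts. The widest spanned 1542 kb of chromosome 5 with 5 genes, from LSM11 to UBLCP1. A run of 10 genes with 14 peaks lay on chromosome 1 (chr1:923923-1116089), from SAMD11 through HES4, ISG15 and AGRN to C1orf159. On chromosome 19, runs of 9 genes held ZNF556, ZNF57, ZNF77, the corepressor genes TLE6, TLE2 and TLE5, the G protein genes GNA11 and GNA15 and the receptor gene S1PR4 (15 peaks over 313 kb), and BEST2, HOOK2, JUNB, PRDX2, THSD8, RNASEH2A, RTBDN, MAST1 and DNASE2 (11 peaks over 130 kb). A run on chromosome 17 from PPP1R1B to MIEN1 held ERBB2 among 7 genes. No chance level was set for such runs.

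Noncoding genes lay near some of the same summits. An end of a long noncoding RNA gene lay within 1 kb of 986 of the 6590 summits (15.0%, 14.1 to 15.8), against 1191 of 5498 shared summits (21.7%, 20.6 to 22.8). A tRNA gene lay there for 7 (0.106%) against 44 (0.800%), and a microRNA gene for 65 (0.986%) against 72 (1.31%). The small nucleolar RNA genes SNORD25, SNORD26 and SNORD27 lay 517, 790 and 999 bases from the SLC3A2 summit and SNORA78 lay 254 bases from that of RPS2. MIR762 lay 300 bases from the BCL7C summit, MIR3615 41 bases from that of NHERF1, MIR5787 130 bases from that of GNAI2 and MIR92B 410 bases from a peak at THBS3.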
